A study of Mus musculus with 12 samples.

Results

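The genes described here are the core of the inflammasome system: the sensors Nlrp3, Nlrc4 and Aim2, the adaptor Pycard (ASC), the caspases Casp1 and Casp4, the pore protein Gsdmd, the ATP-handling channels Panx1 and P2rx7, and Txnip, an arrestin-like protein that binds thioredoxin. They were taken by name, as all 15 of 55681 array probes whose gene name is one of these 10 symbols, out of 35080 names on the array. Total RNA was measured on 12 one-colour arrays in 4 groups of 3. The RAW264.7 groups, a mouse macrophage-like line, were transfected with the vector PLKO (control) or with an shRNA against ABHD5 (knockdown), whose product is a co-activator of the lipase ATGL. The CT-26 groups, a mouse colon carcinoma line, had been primed by control RAW cells or by ABHD5-KD RAW cells. The CT-26 samples carry the genotype labels control and ABHD5-KD, and no transfection of CT-26 cells is stated. The way of priming and of removing RAW264.7 cells afterwards is not described, nor whether the knockdown cells were 1 clone or the samples of a group separate cultures, so p-values measure only the spread between these samples. The series set out to find what macrophage ABHD5 acts on and how that reaches cancer cells.

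Inflammasomes are cytosolic complexes in which a sensor, usually through the adaptor ASC, gathers and activates caspase-1. That protease then matures the cytokines IL-1beta and IL-18 and cleaves gasdermin D, whose fragments open pores in the plasma membrane. Macrophages control the system at 2 steps, since Nlrp3 and Il1b must first be transcribed and a later signal, such as potassium loss through ATP-gated P2X7 or release of ATP through pannexin-1, triggers assembly. RAW264.7 cells are known for lacking ASC protein. An mRNA level bears on the first step only.

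Each level below is the log2 of the processed signal minus that of its array's 75th percentile, so a level of 0 equals that percentile. Levels of different probes are not comparable, because probes differ in brightness. Log2 changes carry the standard error from limma (SE), and a gene is said to have risen or fallen where limma's Benjamini-Hochberg adjusted p over all genes tested was below 0.05. Probes well above background made up 56.5% to 57.8% on RAW264.7 control replicates 1 and 2, which shared slide 1, and 69% to 73% on control replicate 3 and the 3 knockdown arrays, which shared slide 2. On slide 3, with all CT-26 arrays, they made up 68.3% to 77.3% after priming by control cells and 59.2% to 66.9% after priming by knockdown cells. Abhd5 itself fell by 1.32 in RAW264.7 knockdown cells, to 0.4 of its control level (adjusted p = 0.00346, and 0.0556 blocking on the slide). Its change in CT-26 cells was 0.071 (adjusted p = 0.776). Its other probes gave -1.3 and -0.78 in RAW264.7 cells (adjusted p = 0.0157 and 0.0759 over probes). In CT-26 cells those probes gave -0.48 and -0.3 (adjusted p = 0.378 and 0.271 over probes). All 12 macrophage markers were well above background on every RAW264.7 array. In RAW264.7 cells the markers Adgre1, Mpeg1 and Lyz2 rose with the knockdown, by 2.86, 2.77 and 1.88. By the probe used for each gene, none of the 12 fell. Another Csf1r probe fell by 0.78 (adjusted p = 0.0336 over probes), against -0.34 for the probe used. The other Itgam probes rose by 1.52 and 1.53 (adjusted p = 0.00444 and 0.00156 over probes), against -0.38 for the probe used. Blocking on the slide, Lyz2 gave 1.2 and did not pass (adjusted p = 0.233). The part of these marker changes in the results below was not tested.

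Several members had more than 1 probe, and where these disagreed the sequence measured matters. The first 30 of the 60 bases of such probes are given on the strand of the probe, with positions of the whole probe on mm9, as in the scanner files. The Nlrp3 probes lay at chr11:59378554-59378613 (A) and chr11:59379981-59380040 (B).
Nlrp3 probe A: cggccttacttcaatctgttgttcagctct
Nlrp3 probe B: atatcctcagtgggcaaggtgttccctctt
The P2rx7 probes carried the accessions of different transcripts and lay at chr5:123120528-123123413 (A), chr5:123134194-123134253 (B) and chr5:123105174-123105233 (C). Probe A spans 2886 bases of genome with 60 bases of probe and so crosses at least 1 splice junction.
P2rx7 probe A: tttcggcactggaggaaaatttgacatcat
P2rx7 probe B: ttcacttctctctttaaagggaaccatctt
P2rx7 probe C: ggtcaaaaagctccccaatccatgcaacaa
The Txnip probes lay at chr3:96365147-96365206 (A) and chr3:96364206-96364265 (B).
Txnip probe A: ctaaggtgatgttcttagcactttagcttg
Txnip probe B: tggacgactctcaagacagccctatcttta
The Casp4 probes, at chr9:5336663-5336722 (A) and chr9:5336658-5336717 (B), were offset by 5 bases and shared 55 of 60. Capitals mark the 25 shared bases among those shown, and these probes are close to a repeat measurement of the same stretch.
Casp4 probe A: CTAAGCAACACAGTGGGATTCTGTTccata
Casp4 probe B: ccagcCTAAGCAACACAGTGGGATTCTGTT
The remaining genes had 1 probe each: Nlrc4 at chr17:74826172-74826231, Pycard at chr7:135136241-135136300, Casp1 at chr9:5307206-5307265, Gsdmd at chr15:75697536-75697595 (10 spots on each array), Aim2 at chr1:175396036-175396095 and Panx1 at chr9:14810250-14810309.

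The RefSeq promoter table (GRCm38.p6, 250 bases before to 50 after a start) held 12 promoters of 9 members. Both strands of all its 32851 promoters were searched for 5 motif forms, and a match describes letters only. GGANNTTCC, a form bound by NF-kB, was found in 4.26% of all promoters and in 1 of the 12, a Nlrp3 promoter. That match is on the opposite strand, so the strand shown reads GGAAAATCC, beginning at position -122 from the start. TGANTCA, the AP-1 form, was in 7.81% of all and in 1 P2rx7 promoter, at position -249. CACGTG, the E-box, was in 7.15% of all and in the Casp1 promoter. GAGGAAGT, an ETS form, was in 3.2% of all and in 3 of the 12, those of Aim2 and Pycard and the other P2rx7 promoter, where it lies after the start. GAAANNGAA, the interferon response form, was in 8.56% of all and in none of the 12. The 250 bases before the start are shown, in the direction of transcription with matches in capitals, for the promoters of Nlrp3 and P2rx7 that held a match and for Nlrc4, the member with the largest rise. They lie at chr11:59541319-59541568 (+), chr5:122643677-122643926 (+) and chr17:74459109-74459358 (-).
Nlrp3 promoter: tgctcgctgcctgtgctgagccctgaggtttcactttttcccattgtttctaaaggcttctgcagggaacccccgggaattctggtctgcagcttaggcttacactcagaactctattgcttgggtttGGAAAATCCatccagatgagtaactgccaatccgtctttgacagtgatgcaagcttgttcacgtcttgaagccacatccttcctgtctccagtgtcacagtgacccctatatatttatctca
P2rx7 promoter: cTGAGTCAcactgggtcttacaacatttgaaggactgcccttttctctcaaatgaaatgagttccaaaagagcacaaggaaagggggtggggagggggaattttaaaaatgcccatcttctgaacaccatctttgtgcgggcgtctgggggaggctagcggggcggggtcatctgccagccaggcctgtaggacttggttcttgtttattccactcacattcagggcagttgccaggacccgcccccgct
Nlrc4 promoter: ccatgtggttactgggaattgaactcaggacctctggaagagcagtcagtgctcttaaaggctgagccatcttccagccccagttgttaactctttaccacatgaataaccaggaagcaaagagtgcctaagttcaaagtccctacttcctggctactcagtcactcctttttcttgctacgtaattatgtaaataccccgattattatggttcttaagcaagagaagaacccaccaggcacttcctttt

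In RAW264.7 cells 5 of the 10 genes rose after Abhd5 knockdown, namely Nlrc4, Nlrp3, Panx1, Casp4 and P2rx7, and none fell. Of the 3 controls 2 lay on another slide than the knockdown arrays, and blocking on the slide left 2 of the 5 calls, Nlrc4 and Casp4. With that block 4.58% of all genes tested passed in either direction. Without the block, at an unadjusted p below 0.05, limma gave 6 higher and none lower. The share of all genes at that unadjusted p was not counted. This count and the unadjusted counts below therefore have no background to be set against. Among all 25461 genes tested, 22.8% passed in either direction and 7.94% were higher. Higher genes made up 34.8% of those calls, against 62.5% with median centring and 51.8% with quantile normalization. The median change of the 10 was 0.69, against -0.303 for all genes tested. The adaptor Pycard, the pore protein Gsdmd, Aim2 and Txnip did not pass. In CT-26 cells 1 of 8 genes tested passed, Nlrp3, which rose, where 6.36% of 24997 genes passed in either direction and 3.15% were higher. At an unadjusted p below 0.05 there were 2, Nlrp3 and Txnip. The median of the 8 was 0.26, against 0.107 for all genes tested there.

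**Figure D1:**
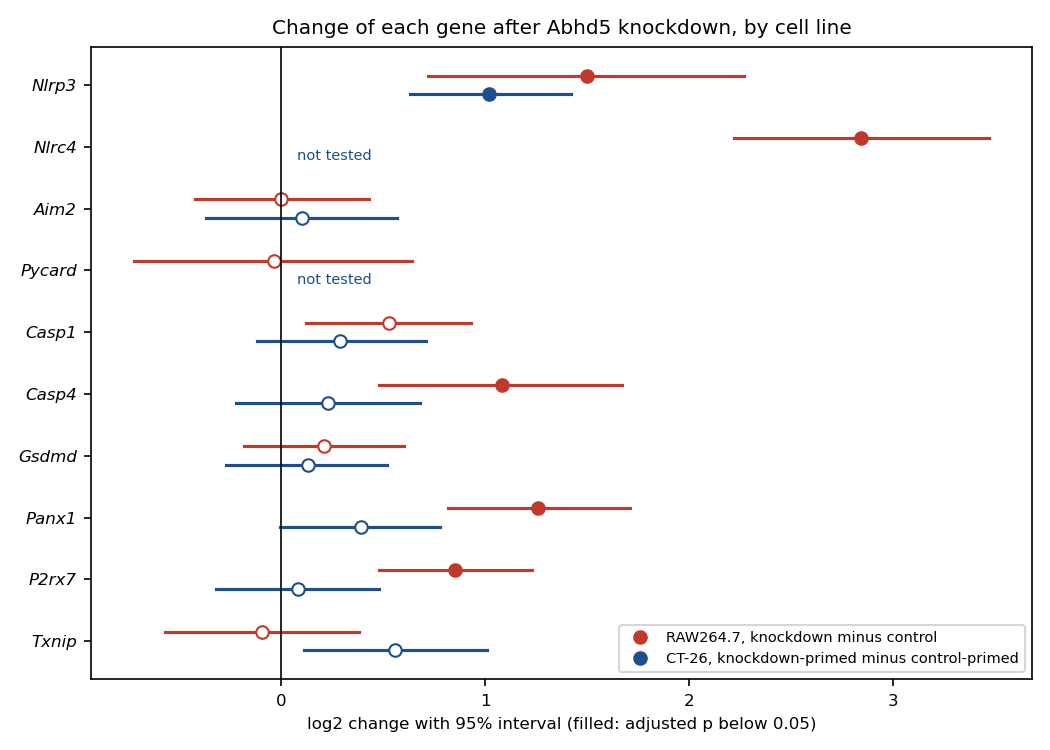
Log2 change of each gene (x axis) with its 95% interval from the limma fit, for RAW264.7 knockdown minus control (red) and CT-26 knockdown-primed minus control-primed (blue), n = 3 arrays per group. Filled points passed the threshold over all genes: Nlrp3, Nlrc4, Casp4, Panx1 and P2rx7 in RAW264.7 cells and Nlrp3 alone of the 8 tested in CT-26 cells.

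Nlrp3 encodes the sensor that answers potassium efflux, crystals and other signs of membrane damage, and its transcript was higher after Abhd5 knockdown. Probe A, the brighter of the 2, read -1.16, -0.72 and -1.21 in the 3 RAW264.7 controls and -0.23, 0.45 and 1.18 in the knockdown arrays. The groups did not overlap, and the knockdown arrays were spread more widely, with the lowest 0.48 above the highest control. The rise was 1.5 ± 0.34 (SE, 2.82-fold, adjusted p = 0.02). Probe B gave 1.35 ± 0.23 (adjusted p = 0.00652 over probes), with controls of -3.44, -3.56 and -3.49 against -2.41, -2.34 and -1.7. Blocking on the slide, which sets the knockdown arrays against control replicate 3 of their own slide, gave 1.68 and an adjusted p of 0.113. The call of probe A was also lost, at adjusted p of 0.059, 0.0621 and 0.0574, without control replicate 1 or knockdown replicates 2 or 3, with changes of 1.43, 1.5 and 1.14.

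In CT-26 cells the same Nlrp3 probe A read -3.54, -4.05 and -3.93 after priming by control macrophages and -2.79, -2.75 and -2.91 after priming by knockdown macrophages. The groups were apart by 0.63, with an SD of 0.083 among the knockdown-primed arrays. The rise was 1.02 ± 0.18 (2.03-fold, adjusted p = 0.0187). Probe B did not show it, with -4.65, -5 and -5.24 against -4.82, -4.75 and -4.77, a change of 0.19 ± 0.18 (adjusted p = 0.513), and on 1 knockdown-primed array it was not well above background. The mean of both probes changed by 0.60 (adjusted p = 0.0623). Leaving out control-primed replicate 2 or 3, or knockdown-primed replicate 3, ended the call of probe A (adjusted p = 0.074, 0.0977 and 0.056). Macrophage markers were present in these samples: 9 of 12 were well above background on all control-primed arrays and 8 of 12 on all knockdown-primed arrays. Their summed signal ran from 55.4 to 61.1 and from 56.9 to 75.2 times the array's 75th percentile, against 286 to 346 in RAW264.7 cells. Most of the CT-26 sum was the Itgam probe used, at 45.6 to 67.2 there and 51.3 to 98.4 in RAW264.7 cells. With the knockdown in RAW264.7 cells that probe changed by -0.38, unlike the other Itgam probes (1.52 and 1.53). The other 11 markers summed to 9.47 to 10.2 after control priming and 7.87 to 9.72 after knockdown priming, against 224 to 279 in RAW264.7 cells. Adgre1 and Spi1 were not well above background on any CT-26 array, nor were Tyrobp and Laptm5 after knockdown priming, and Cd68 fell by 0.83 (adjusted p = 0.0208). The part of macrophage RNA in the Nlrp3 result was not tested.

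Nlrc4, the sensor that with NAIP proteins detects bacterial flagellin and secretion system parts, changed most of the 10. RAW264.7 controls read -4.21, -4 and -4.43, and the knockdown arrays -1.96, -1.11 and -1.03. The lowest knockdown array lay 2.04 above the highest control. The rise was 2.84 ± 0.27 (7.18-fold, adjusted p = 0.000302), and the call held under each of the 17 alternatives run, with 2.10 after normexp background correction as the smallest value and 3.14 as the largest. Blocking on the slide gave 3.06. In CT-26 cells Nlrc4 was not well above background on any control-primed array (-8.87, -9.54 and -8.51) and on 1 of 3 knockdown-primed arrays (-8.33, -4.19 and -7.25), so it was not tested there. The single knockdown-primed array at -4.19 stood far above its replicates. It is the array on which Nlrc4 came near the RAW264.7 control level.

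Aim2, the sensor of double-stranded DNA in the cytosol, stayed close to its control level in both lines. RAW264.7 controls read -0.25, 0.16 and -0.25 and knockdown arrays -0.16, -0.071 and -0.11. The knockdown values fell inside the range of the controls, with a change of 0.0015 ± 0.19 (95% interval -0.42 to 0.43, adjusted p = 0.996). In CT-26 cells the levels were 0.52, -0.22 and 0.37 against 0.24, 0.32 and 0.41, a change of 0.10 ± 0.21 (95% interval -0.37 to 0.57, adjusted p = 0.764).

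Pycard, which encodes the adaptor ASC that links Nlrp3 and Aim2 to caspase-1, was dim in every group. RAW264.7 controls read -4.36, -5.34 and -4.16, and only the last of these, on slide 2, was well above background. The knockdown arrays, all on slide 2, read -4.68, -4.66 and -4.63 and were all well above background. The lowest signal that counted as well above background was a level of -4.8 on both arrays of slide 1 and between -6.93 and -6.32 on slide 2. The change was -0.037 ± 0.3 (95% interval -0.72 to 0.64, adjusted p = 0.929), and its sign turned with median centring (0.18) and quantile normalization (0.26). In CT-26 cells Pycard was well above background on 2 control-primed arrays and on none of the knockdown-primed arrays, at levels from -6.48 to -4.68, and was not tested.

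**Figure D2:**
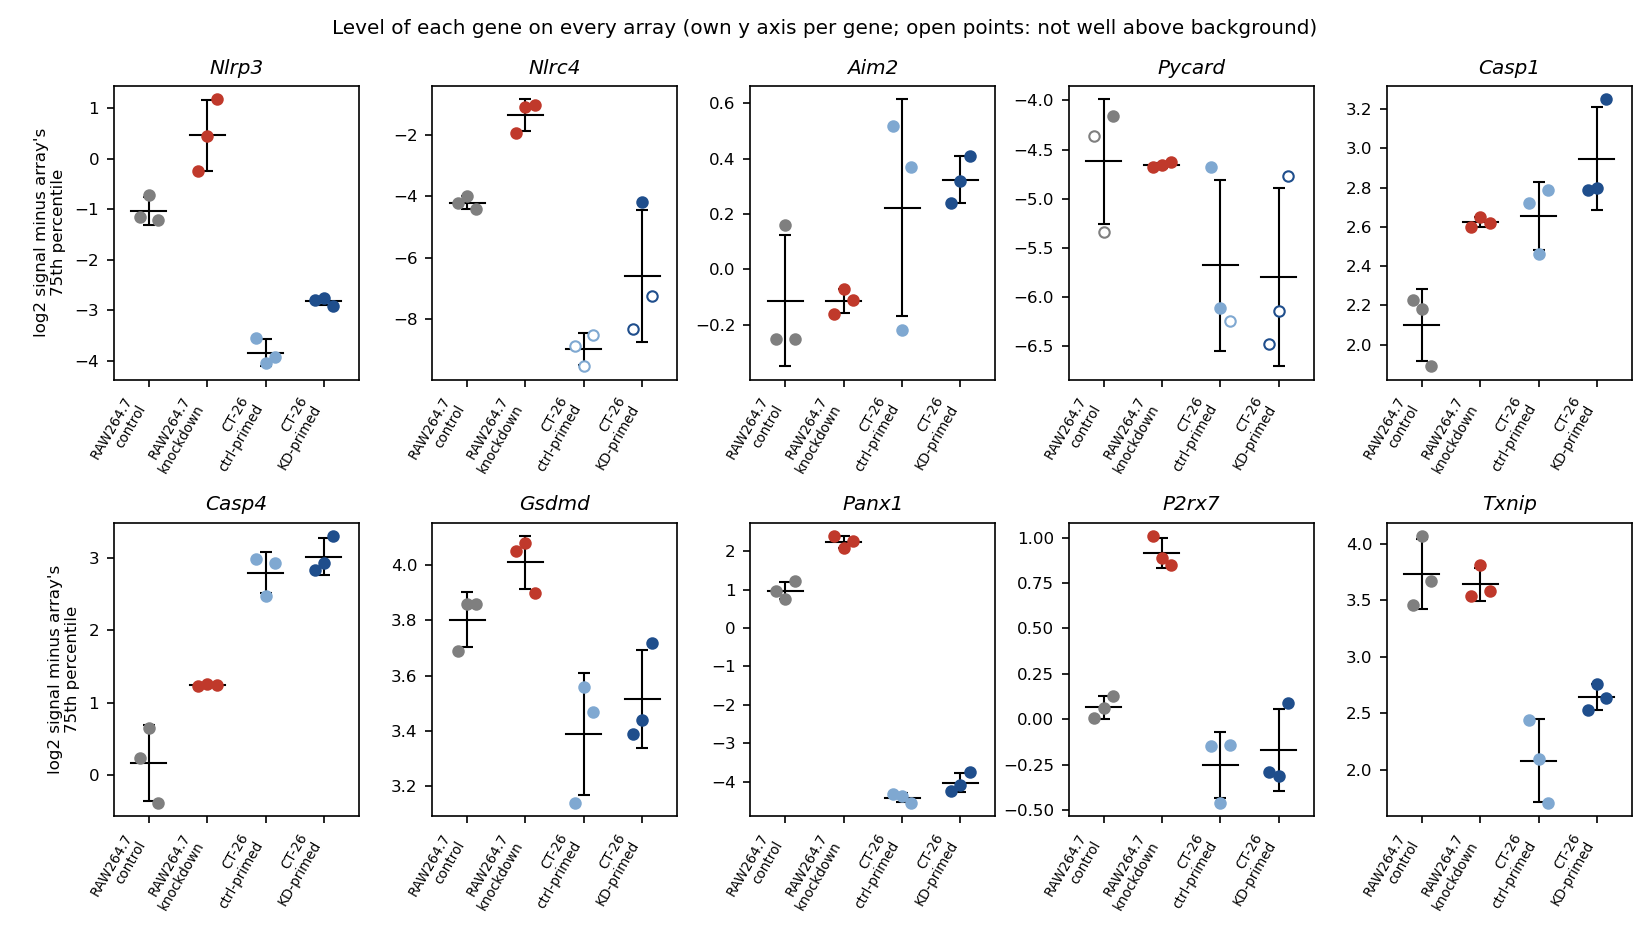
Level of each gene on all 12 arrays, as log2 signal minus the array's 75th percentile, with 1 panel and 1 y axis per gene (the brightest probe where there are several); black lines show the mean and SD of 3 arrays, and open points were not well above background. Nlrp3, Nlrc4 and Panx1 were highest in RAW264.7 knockdown cells and lowest in CT-26 cells, Casp4 ran the other way between the lines, and Pycard and Nlrc4 held open points.

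Casp1, the protease that matures IL-1beta and cleaves gasdermin D, was higher in knockdown cells by less than the threshold required. RAW264.7 controls read 2.23, 2.18 and 1.89, and knockdown arrays 2.6, 2.65 and 2.62. The groups were apart by 0.37, with an SD of 0.026 among the knockdown arrays. The change of 0.53 ± 0.18 (95% interval 0.12 to 0.93) had an adjusted p of 0.0605, and it passed under 6 of 17 alternatives, among them quantile normalization (0.61, adjusted p = 0.0366) and median centring (0.74, adjusted p = 0.0201). In CT-26 cells it was 0.29 ± 0.18 (adjusted p = 0.303), from 2.72, 2.46 and 2.79 to 2.79, 2.8 and 3.25.

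Casp4 is the mouse gene for caspase-11, the caspase that binds bacterial lipopolysaccharide in the cytosol and cleaves gasdermin D directly. Probe B read 0.23, 0.65 and -0.39 in RAW264.7 controls and 1.23, 1.26 and 1.24 in knockdown cells. The controls were scattered and the knockdown arrays nearly equal, with no overlap. The rise was 1.08 ± 0.26 (2.11-fold, adjusted p = 0.0255), and 1.15 ± 0.23 for the overlapping probe A (adjusted p = 0.0122 over probes). Control replicate 3, the control on the slide of the knockdown arrays, was the lowest, and blocking on the slide gave a larger change, 1.63 (adjusted p = 0.0138 for this probe over probes). Leaving out control replicate 1 or any knockdown replicate ended the call (adjusted p = 0.0582, 0.0717, 0.0815 and 0.0857), with the change between 1.07 and 1.11. In CT-26 cells the levels were 2.99, 2.47 and 2.93 against 2.83, 2.93 and 3.31, and the groups overlapped, with a change of 0.23 ± 0.20 (adjusted p = 0.46).

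Gsdmd, the substrate whose cut fragments form the pyroptotic pore, was among the steadiest of the 10. RAW264.7 controls read 3.69, 3.86 and 3.86, and knockdown arrays 4.05, 4.08 and 3.9. The groups were separated by 0.047 only, and the change of 0.21 ± 0.17 (95% interval -0.18 to 0.6) did not pass (adjusted p = 0.352), although it was 0.52 after quantile normalization (adjusted p = 0.0353). In CT-26 cells the change was 0.13 ± 0.18 (adjusted p = 0.644), from levels of 3.14, 3.56 and 3.47 to 3.39, 3.44 and 3.72, with overlap.

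Panx1 encodes pannexin-1, the large-pore channel through which cells release ATP. RAW264.7 controls read 0.96, 0.75 and 1.21, and the knockdown arrays 2.39, 2.07 and 2.25. The lowest knockdown array lay 0.85 above the highest control. The rise was 1.26 ± 0.20 (2.4-fold, adjusted p = 0.00398), held under 16 of 17 alternatives, and was 1.02 when blocking on the slide (adjusted p = 0.0771). In CT-26 cells Panx1 was low, with -4.32, -4.38 and -4.55 against -4.24, -4.09 and -3.76. These groups were separate by 0.083, and the change of 0.39 ± 0.17 (95% interval -0.0039 to 0.78) did not pass (adjusted p = 0.171).

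P2rx7, the ATP-gated cation channel whose opening is a classic trigger of Nlrp3, rose by 2 of its 3 probes in RAW264.7 cells. Probe C, the brightest, read 0.0049, 0.06 and 0.13 in controls and 1.01, 0.89 and 0.85 in knockdown arrays. The groups lay 0.72 apart, with SDs of 0.065 and 0.083, and the rise was 0.85 ± 0.17 (1.81-fold, adjusted p = 0.0112). Probe B gave the same size, 0.85 ± 0.22 (adjusted p = 0.032 over probes), from -2.62, -1.93 and -2.4 to -1.51, -1.55 and -1.34. Probe A, which crosses a splice junction, read -2.26, -2.31 and -2.62 against -2.17, -2.64 and -2.88. It overlapped between groups, with a change of -0.17 ± 0.23 (adjusted p = 0.593), so the mean over the 3 probes changed by 0.51 and did not pass (adjusted p = 0.0585). Blocking on the slide, probe C gave 0.79 (adjusted p = 0.137 over genes), and without knockdown replicate 2 or 3 it gave 0.87 and 0.89 (adjusted p = 0.056 and 0.054). In CT-26 cells the 3 probes changed by -0.098, -0.19 and 0.081, none past the threshold, and the controls and knockdown-primed arrays of probe C overlapped, at -0.15, -0.46 and -0.14 against -0.29, -0.31 and 0.092.

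**Figure D3:**
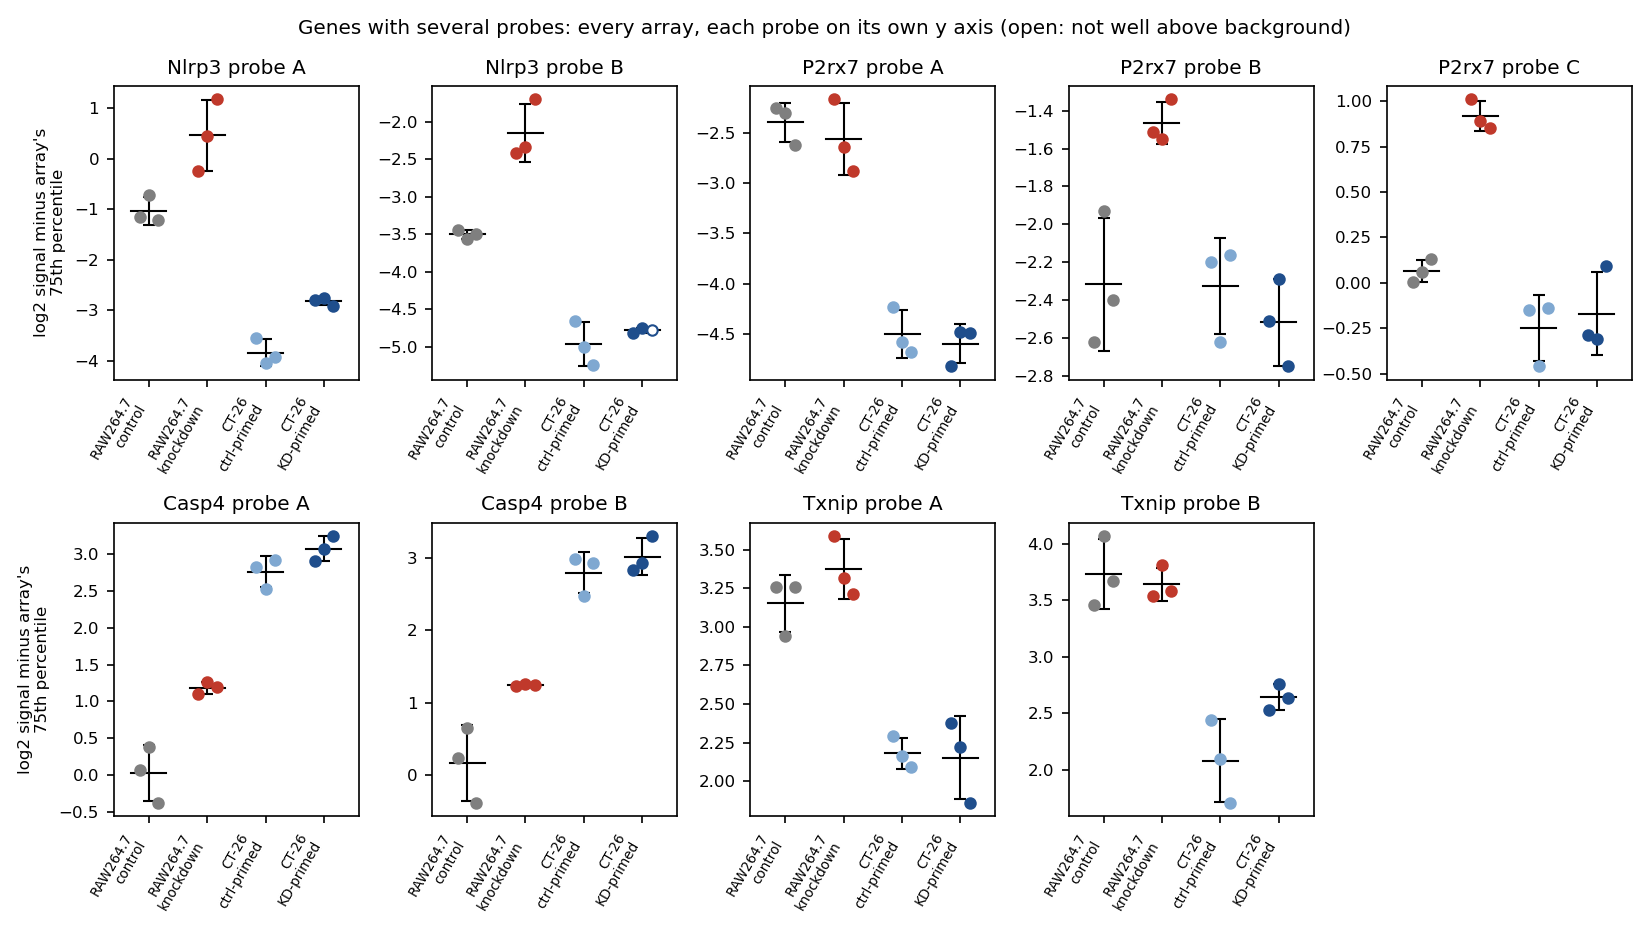
Level on all 12 arrays of every probe of Nlrp3, P2rx7, Casp4 and Txnip, as log2 signal minus the array's 75th percentile, each probe on its own y axis; black lines show mean and SD of 3 arrays, and open points were not well above background. Both Nlrp3 probes were higher in RAW264.7 knockdown cells but only probe A separated the CT-26 groups, and P2rx7 probe A did not show the separation of probes B and C.

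Txnip, which binds thioredoxin and is described as a partner of Nlrp3 under oxidative stress, did not pass in either line. Probe B read 3.46, 4.07 and 3.67 in RAW264.7 controls and 3.54, 3.81 and 3.58 in knockdown arrays. The knockdown values fell inside the range of the controls, with a change of -0.093 ± 0.21 (95% interval -0.57 to 0.38, adjusted p = 0.747), and probe A gave 0.23 ± 0.20 (adjusted p = 0.397 over probes). In CT-26 cells probe B read 2.44, 2.1 and 1.71 after control priming and 2.53, 2.76 and 2.64 after knockdown priming. These groups did not overlap, but the gap was 0.089 and the change of 0.56 ± 0.20 had an adjusted p of 0.109. Probe A gave -0.027 there (adjusted p = 0.931 over probes).

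The test of the difference between the RAW264.7 and CT-26 changes passed for 2 of the 10, Panx1 and P2rx7, where 31.4% of 27074 genes passed in either direction. The 10 include Nlrc4 and Pycard, which were not tested in CT-26 cells alone. Their differences, 0.46 ± 1.08 and 0.083 ± 0.68, rest mostly on CT-26 arrays not well above background and do not show like changes in the lines. The Panx1 change was larger in RAW264.7 cells by 0.88 ± 0.26 (adjusted p = 0.0247) and that of P2rx7 by 0.77 ± 0.23 (adjusted p = 0.0262). Casp4 differed by 0.85 ± 0.35 and did not pass with probe B (adjusted p = 0.0818), while for probe A the difference was 0.84 (adjusted p = 0.0495 over probes). The Nlrp3 changes of the 2 lines, both past the threshold with probe A, differed by 0.47 ± 0.42 (95% interval -0.44 to 1.38, adjusted p = 0.4), whereas probe B differed by 1.16 ± 0.30 (adjusted p = 0.0175 over probes). Blocking on the slide, the Panx1 and P2rx7 differences were 0.64 and 0.70 and neither passed (adjusted p = 0.177 and 0.131). The P2rx7 difference was 0.58 as a mean over its probes (adjusted p = 0.0564). Both calls rested on narrow margins. The Panx1 call ended without RAW264.7 knockdown replicate 1 or 3, control-primed replicate 2 or knockdown-primed replicate 2 (adjusted p = 0.0544, 0.0542, 0.0538 and 0.05), with differences from 0.80 to 0.87. The P2rx7 call ended without RAW264.7 knockdown replicate 1 or 2, control-primed replicate 1 or 3 or knockdown-primed replicate 2 (adjusted p = 0.0547, 0.0501, 0.053, 0.0677 and 0.0575), with differences from 0.70 to 0.79.

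Levels of most of these genes differed between the 2 lines, as did those of most genes tested. Between RAW264.7 control cells and control-primed CT-26 cells 7 of 9 genes tested passed, 5 higher and 2 lower in RAW264.7 cells, where 72.2% of 25588 genes passed. Slide and cell line cannot be told apart in this comparison. Panx1 was higher in RAW264.7 cells by 5.39 ± 0.18 (41.9-fold), Nlrp3 by 2.81 ± 0.29 (7.01-fold) and Txnip by 1.65 ± 0.21 (3.15-fold, probe A 0.97). Nlrc4 was at least 5.73-fold higher, a bound because no control-primed CT-26 array was well above background. The bound sets the RAW264.7 mean against, for each CT-26 array, the lowest signal that counted as well above background.

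Casp4 went the other way, at 0.17 ± 0.52 in RAW264.7 control cells against 2.8 ± 0.28 (SD, n = 3, 6.19-fold lower, adjusted p = 1.05e-06), and so did Casp1, at 2.1 ± 0.19 against 2.66 ± 0.17 (SD, n = 3, adjusted p = 0.0118). Gsdmd was higher in RAW264.7 cells by 0.41 ± 0.16 (adjusted p = 0.0362), but lower by -0.32 after quantile normalization (adjusted p = 0.0309), so its direction depends on the scaling. The Gsdmd call also ended without RAW264.7 control replicate 2 or 3 or control-primed replicate 1 or 3 (adjusted p = 0.0675, 0.0824, 0.155 and 0.0545), with differences of 0.38, 0.38, 0.29 and 0.45. Aim2 did not pass, with a difference of -0.34 ± 0.20 (adjusted p = 0.143). P2rx7 depended on the probe: A was higher in RAW264.7 cells by 2.10 ± 0.21 (adjusted p = 2.66e-06 over probes), while B differed by 0.0069 (adjusted p = 0.978) and C by 0.32 (adjusted p = 0.0943 over genes).

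Across the 4 groups Panx1 means ranged over 6.66 log2 units, Nlrp3 over 4.31 and Casp4 over 2.85, and those of Aim2 over 0.43. Nlrc4 ranged over at least 5.36, with each of its 5 CT-26 arrays not well above background at the lowest signal that counted as such. Panx1 and Nlrp3 shared the same order, with RAW264.7 knockdown cells highest, then RAW264.7 control, CT-26 knockdown-primed and CT-26 control-primed cells. Of the neighbours in that order, RAW264.7 control and CT-26 knockdown-primed cells were not compared by a test, and the CT-26 pair did not pass for Panx1. Nlrc4 was highest in RAW264.7 knockdown cells, then RAW264.7 control cells, and its CT-26 groups have no order. For Casp4 both CT-26 groups lay highest, at 3.02 ± 0.26 and 2.8 ± 0.28 (SD, n = 3), not distinguishable from each other, then RAW264.7 knockdown at 1.24 ± 0.016 and control at 0.17 ± 0.52. For each of these 4, the 3 tested genes of most similar level were taken by Pearson correlation over the 12 arrays. For Panx1 they were Acod1 (0.999), Lilr4b (0.998) and Cd59a (0.998), for Nlrp3 Nr1h3 (0.989), Zfp811 (0.984) and Tlr13 (0.982), for Nlrc4 Klhl11 (0.979), Scimp and Kif5b (both 0.973), and for Casp4 Ap1s2, Dennd10 (both 0.994) and Gstm5 (0.993). These points share the split between the lines, which also separates the slides, and give no test, and those of Nlrc4 include its 5 arrays at background.

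**Figure D4:**
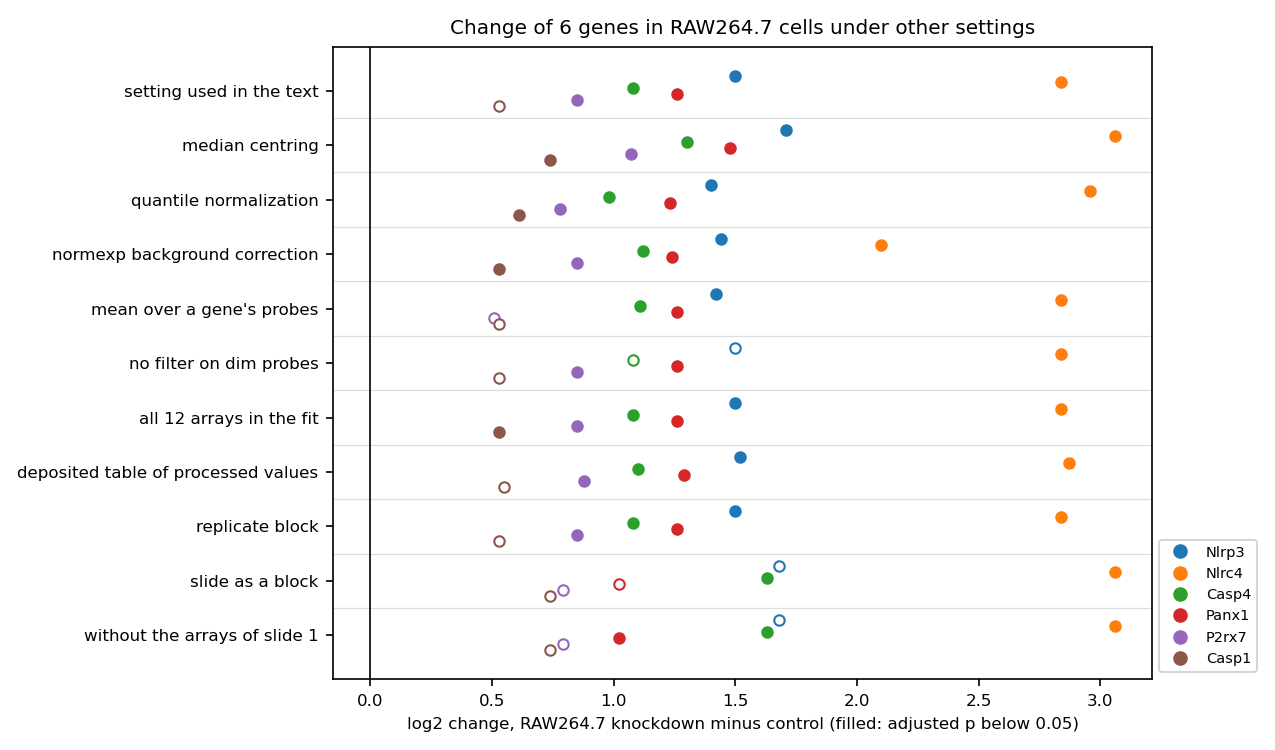
Log2 change in RAW264.7 cells, knockdown minus control, of the 5 genes that passed and of Casp1 under the setting used in the text and 10 other settings; filled points have an adjusted p below 0.05. Every point lies above 0, Nlrc4 is filled throughout, and with the slide as a block the filled points are Nlrc4 and Casp4.

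Of the other sensors, 15 of 19 listed were tested in RAW264.7 cells, and 2 rose and 1 fell, a share near the 22.8% of all genes, with a median of 0.0992 against -0.303. Nod1 and Nod2, receptors for bacterial peptidoglycan fragments, rose by 1.48 ± 0.21 (2.79-fold) and 1.29 ± 0.33 (2.45-fold, adjusted p = 0.029). Nlrx1, a mitochondrial member of the family, fell by 0.70 with its brighter probe (adjusted p = 0.0267), while its other probe gave 0.53 (adjusted p = 0.375 over probes). Another probe of Ifi204, named after its value was seen, gave 2 and passed over probes (adjusted p = 0.00515), against 0.29 for the probe used. Blocking on the slide, Nod1 kept its call (1.16, adjusted p = 0.046) and Nod2 and Nlrx1 did not. In CT-26 cells 1 of 13 passed, a share near the 6.36% of all genes there. The gene was Nlrp2, a sensor little studied in macrophages, which rose by 1.59 ± 0.20 (3.01-fold, adjusted p = 0.00798), from -2.93, -3.14 and -2.71 to -1.71, -1.17 and -1.12. It was not well above background on any RAW264.7 array. Zbp1, a sensor of Z-form nucleic acid, gave 0.54 there (adjusted p = 0.0973).

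Among other caspases and gasdermins, 14 of 16 on the array were tested, and 3 rose and 1 fell in RAW264.7 cells, beside 22.8% of all genes, with a median of 0.12 against -0.303. Gsdme, the gasdermin cut by caspase-3, rose by 3.34 ± 0.21 (10.2-fold, adjusted p = 2.7e-05), from -2.22, -2.69 and -2.24 to 0.87, 0.83 and 1.17, and by 3.20 blocking on the slide (adjusted p = 0.000571). A probe under Dfna5, the former symbol of Gsdme, was counted separately and gave -0.21 (adjusted p = 0.537), at dim levels from -5.48 to -4.53. Gsdma, an epithelial gasdermin, was at least 1.78-fold higher, since no control array was well above background. Gsdmc4 fell by 1.09 (adjusted p = 0.00476, and 0.0874 blocking on the slide). The third rise was Casp8, at 0.96 (adjusted p = 0.0426, and 0.287 with that block), named after its value was seen. In CT-26 cells none of 13 passed in limma, beside 6.36% of all genes, with 2 higher and none lower at an unadjusted p below 0.05. Ninj1, which ruptures the membrane of dying cells, gave 0.42 (adjusted p = 0.158).

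Of 6 tested cytokines, alarmins and antagonists of the inflammasome output in RAW264.7 cells, 3 rose and none fell, with a median of 2.31 (2.28 with Il1a at its bound), beside 22.8% and -0.303 over all genes. At an unadjusted p below 0.05 there were 4 higher and 1 lower. Il1b read -3.95, -3.41 and -3.33 in controls and 2.77, 3.26 and 3.68 in knockdown arrays, a rise of 6.80 ± 0.28 (111-fold). Il1rn, the receptor antagonist, rose by 4.01 ± 0.22, and Il1a was at least 15.5-fold higher. Il18, the other cytokine matured by caspase-1, gave 0.44 (adjusted p = 0.172) and did not pass. All 3 kept their calls with the slide as a block. In CT-26 cells none of 5 passed in limma, beside 6.36% of all genes, with 1 lower at an unadjusted p below 0.05. Il1b gave 0.31 there (adjusted p = 0.377) and Il18bp, which neutralizes IL-18, -0.43 (adjusted p = 0.116).

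Of 16 regulators, 15 were tested, and 2 rose and 1 fell in RAW264.7 cells, again near the 22.8% of all genes, with a median of -0.0522 against -0.303. Gbp5, a GTPase that promotes Nlrp3 assembly, rose by 1.41 ± 0.22 (2.65-fold), and Serpinb1a, an inhibitor of inflammatory proteases, by 1.09 ± 0.17. Irf8, a transcription factor known for driving Naip genes, fell by 1.20 (adjusted p = 0.00609). With the slide as a block Serpinb1a kept its call (adjusted p = 0.0438) and Gbp5 and Irf8 did not (0.084 and 0.0775). None of 15 passed in CT-26 cells in limma, beside 6.36% of all genes, with 2 lower at an unadjusted p below 0.05. A second probe of Fbxl2, named after its value was seen, gave -2.09 and passed over probes (adjusted p = 0.0148), against 0.053 for the probe used. Irgm1, an interferon-induced GTPase, came closest, at -0.67 (adjusted p = 0.0553). Gbp5 gave -0.55, and its other probe -0.082 (adjusted p = 0.811 over probes).

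Of 13 other channels and ATP-handling enzymes, 11 were tested and 1 rose in RAW264.7 cells, beside 22.8% of all genes, with a median of 0.305 against -0.303 and none lower, also at an unadjusted p below 0.05. It was Nt5e, the ecto-enzyme that makes adenosine from AMP, at least 7.36-fold higher and kept with the slide as a block. Another probe of Trpm2, named after its value was seen, gave 2.49 and passed over probes (adjusted p = 0.00331), against 0.53 for the probe used. P2rx4, another ATP-gated channel, gave 0.69 (adjusted p = 0.0693), while its other probe gave -0.16 (adjusted p = 0.547 over probes). The potassium channel Kcnk13 gave 0.82 (adjusted p = 0.0611). In CT-26 cells none of 9 passed in limma, beside 6.36% of all genes. At an unadjusted p below 0.05 there were 3 higher, among them Clic1, a chloride channel protein, at 0.46, and Kcnk13 at 0.45.

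Of 10 genes related to Txnip, all tested, 2 rose and 1 fell in RAW264.7 cells, beside 22.8% of all genes, with a median of -0.199 against -0.303. Arrdc4, the closest relative of Txnip and known to be induced with it by glucose, rose by 4.26 ± 0.21 (19.2-fold, adjusted p = 9.5e-06), from -1.51, -1.98 and -1.44 to 2.5, 2.53 and 2.83, and its other probe gave 3.75. Txnip itself, on the same arrays, changed by -0.093. Arrdc2 fell by 1.42 (adjusted p = 0.00419, and 0.0624 with the slide as a block), with -1.45 by its other probe, and Arrdc3 rose by 0.80 (adjusted p = 0.0494, and 0.175 with that block). In CT-26 cells none of 9 passed in limma, beside 6.36% of all genes. At an unadjusted p below 0.05 there were 1 higher and 1 lower, Txn1 at 0.47 and Arrdc2 at -0.42. The other Arrdc2 probe gave -1 there and passed over probes (adjusted p = 0.0433).

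**Figure D5:**
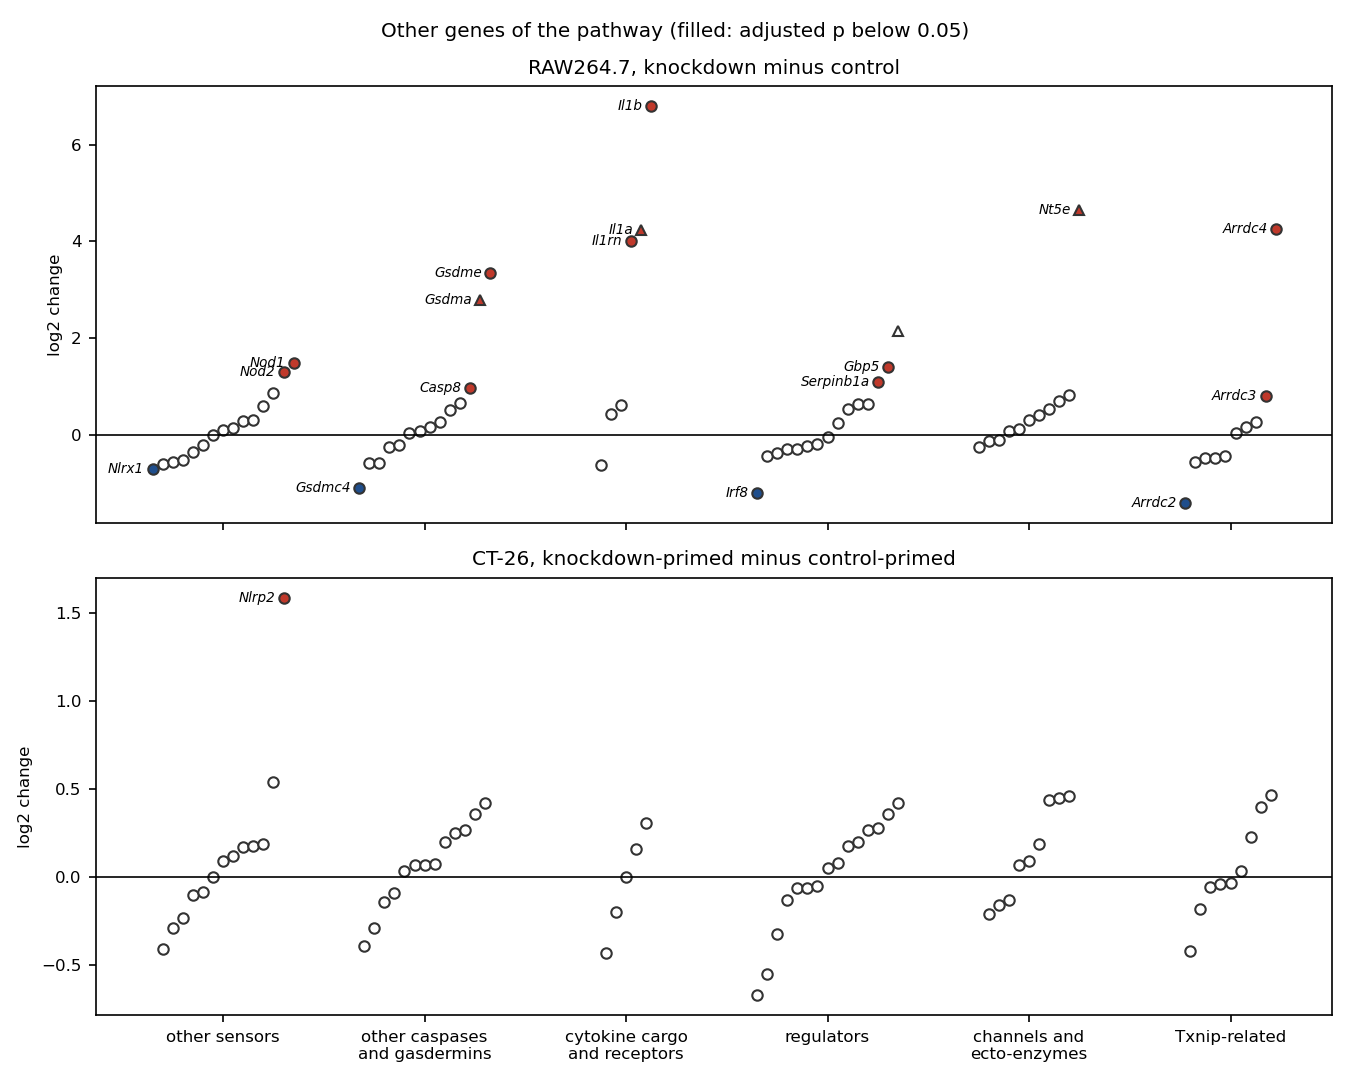
Log2 change of every tested gene of 6 lists around the inflammasome, in RAW264.7 cells (top) and CT-26 cells (bottom, on a narrower y axis); red points rose, blue points fell and open points did not pass; triangles are fitted values against a group not well above background and have no rank. Among circles Il1b, Arrdc4, Il1rn and Gsdme stand highest in RAW264.7 cells, and Nlrp2 is the filled point in CT-26 cells.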

How the data were processed

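Total RNA was labelled with Cy3 by linear amplification, per the labels, and hybridised to 1-colour Agilent arrays read with Agilent Feature Extraction 10.7.3.1, per the submitters' processing notes. The deposited scanner files hold the authors' background-corrected intensity per spot, linear and not scaled between arrays, with probe positions on mm9, per the file headers. A deposited table of processed values, whose scale is not stated, was found by comparison with the scanner files to hold log2 values minus the 75th percentile in its 6 RAW264.7 columns (medians -3.814, -3.532, -3.903, -4.02, -3.94 and -3.934) and linear signal in its 6 CT-26 columns (medians 272.6, 276, 274.4, 226.1, 131.7 and 174). Of the 12 columns, 7 matched their own array and 5, all of CT-26 cells, another replicate of the same group. The table served as an alternative only. Replicate numbers of CT-26 arrays in the text follow the scanner files and are uncertain. The precision is limited by the number of arrays, 3 per group.

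After removal of control and outlier spots, each log2 signal had its array's 75th percentile taken off, and a probe's spots were averaged. Of 55681 probes, 26762 were named through accessions in a RefSeq gene table (GRCm38.p6, for names only), 3819 through symbols, and 25100 kept the array's name. The brightest of the probes detected (well above background on the 3 arrays of any one group) stood for its gene, and it was tested where that held in either group compared. Linear models were fitted by lmFit and eBayes of limma 3.58.1 under R 4.3.3 (two-sided, Benjamini-Hochberg over all genes, threshold 0.05), and were tested on simulated data. Each line's comparison used its own 6 arrays, and the difference and the comparison of the lines used all 12. All 10 genes are named, and of each other list up to 3 genes with the smallest p in RAW264.7 cells and 2 in CT-26 cells, of which 1 is not reported here. The genes and lists were chosen with earlier results of these data known. Alternatives were median centring, quantile normalization, normexp (offset 50), other filters and probe rules, the slide or replicate number as a block, all 12 arrays in 1 fit, the deposited table and leaving out arrays. A fold "at least" sets the detected group against the lowest signal well above background of the other group's arrays.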

Additional observations from a re-analysis of the deposited data

Results flagged for a closer look

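For 2 of the genes the change differed between the lines by the test of the difference itself, which 31.4% of all 27074 genes tested passed. Panx1 changed by 1.26 in RAW264.7 cells and by 0.39 in CT-26 cells, a difference of 0.88 ± 0.26 (SE, limma adjusted p = 0.0247). P2rx7 changed by 0.85 and 0.081 with probe C, a difference of 0.77 ± 0.23 (adjusted p = 0.0262), and its probe A gave a difference of -0.071. Neither passed blocking on the slide (adjusted p = 0.177 and 0.131) or with the replicate block (0.0529 and 0.0508). Panx1 was far dimmer in CT-26 cells, at -4.42 against 0.97 in RAW264.7 control cells, whereas P2rx7 probe C was at a like level in both, -0.25 and 0.066. The part of that dimness in the Panx1 difference was not tested.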

How the results depend on the processing

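Of the 5 genes that rose in RAW264.7 cells, 3 passed without a filter on dim probes (Nlrc4, Panx1 and P2rx7), 3 without the arrays of slide 1 (Nlrc4, Casp4 and Panx1), and 2 blocking on the slide (Nlrc4 and Casp4). Without slide 1 the control arm is 1 array, assumed to vary like the knockdown arrays. Leaving out 1 array gave 2 to 6, with 2 without knockdown replicate 2 or 3 and 3 without control replicate 1. The single gene called in CT-26 cells, Nlrp3, was lost without a filter on dim probes, as a mean over probes and with all 12 arrays in the fit (0 genes called each), and the count ran from 0 to 1 when 1 array was left out. For the difference between the lines, 1 gene passed as a mean over probes (Panx1), 1 blocking on the slide and 1 without slide 1 (Casp4 in both, at 1.40), and 0 to 3 when 1 array was left out. The count for the comparison of the lines, 7, ran from 6 to 8 when 1 array was left out.

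The replicate numbers gave no sign of pairing. Same-numbered arrays deviated with correlations from -0.0784 to 0.0111 in RAW264.7 cells and from -0.166 to -0.0263 in CT-26 cells. CT-26 replicate numbers differ between the scanner files and the deposited values, so these correlations cannot exclude another pairing there. With the replicate block 5 of the genes still passed in RAW264.7 cells and 1 in CT-26 cells, and 0 for the difference (Panx1 adjusted p = 0.0529, P2rx7 0.0508).

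Of the values that changed sign, Gsdmd between the lines passed in both directions, from 0.41 to -0.32 with quantile normalization, and the others did not pass in the text. In RAW264.7 cells Pycard became 0.18 with median centring and 0.26 with quantile normalization, and Txnip 0.13, 0.21, 0.01 with normexp and 0.07 as a mean over probes. In CT-26 cells Gsdmd became -0.09 with quantile normalization and P2rx7 -0.07 as a mean over probes. In the difference Aim2 became 0.08 with median centring and 0.04 with the slide as a block or without slide 1, and Pycard -0.76 with normexp and -0.38 in those last fits. Leaving out 1 array in RAW264.7 cells moved Pycard from -0.4 to 0.19, Aim2 from -0.07 to 0.14 and Txnip from -0.23 to 0.08. In CT-26 cells it moved Aim2 from -0.12 to 0.25 and P2rx7 from -0.05 to 0.15, and in the difference Pycard from -0.41 to 0.60, Gsdmd from 0 to 0.21, Aim2 from -0.25 to 0.12 and Nlrc4 from -0.41 to 1.66. The Nlrc4 difference of 1.66 came without knockdown-primed replicate 2, the only CT-26 array with Nlrc4 well above background (-4.19). The value of -0.41 came without knockdown-primed replicate 1. The cause of the sign changes was not tested.

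Over all genes, calls in RAW264.7 cells (5801) numbered 3834 with median centring, 2645 without a filter, 1166 with the slide as a block, 1867 without slide 1, 9208 with all 12 arrays and 1692 to 7387 without 1 array. Higher calls made up 34.8% of them, against 62.5% with median centring, 51.8% with quantile normalization and 22.9% with normexp, as the median change moved from -0.303 to -0.0844, -0.098 and -0.369. In CT-26 cells (1591) there were 41 without a filter, 902 with the replicate block, 1031 with all 12 arrays and 94 to 3001 without 1 array, and in the difference (8494) 2381 with the slide as a block, 3747 without slide 1 and 5097 to 10175 without 1 array. In CT-26 cells higher calls made up 49.5%, 62.6% with median centring and 64.5% with normexp.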
